A study of Homo sapiens with 12 samples.

Results

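The genes described here are 28 enzymes and regulators of cholesterol synthesis. They were chosen by name, with earlier results of these data known. They are 20 enzymes that carry acetyl-CoA to cholesterol, 7 genes of the SREBP transcription factors and their control, and the sterol carrier STARD4. All 28 were found among the 20308 genes of the expression table, and all 28 passed the filter on low values, a mean of at least 0.5 FPKM (fragments per unit of transcript length and unit of library depth). The set does not hold every enzyme of the pathway. The RNA came from C4-2, an established cell line of castration-resistant prostate cancer. Cells of the group NC carried an empty vector, and cells of the group oeALKBH5 overexpressed ALKBH5, an enzyme that erases the methyl mark m6A (N6-methyladenosine) on RNA. Each group had 3 libraries of total RNA, depleted of rRNA and without m6A pull-down (input), and these 6 libraries are compared. The promoter of the construct, the time after its introduction and whether the lines are clones are not given in the sources used here, nor whether replicates came from separate cultures. The p-values thus speak only to the spread among these libraries, and that spread may be technical. In bulk RNA, fewer cells that express a gene and less RNA of it per cell cannot be told apart.

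Cells build cholesterol from acetyl-CoA through mevalonate, isoprenoid diphosphates, squalene and lanosterol. When sterols in the endoplasmic reticulum are scarce, SCAP escorts the SREBP precursors to the Golgi, where the site-1 and site-2 proteases release the active transcription factors, which bind sterol regulatory elements in the promoters of most of these enzymes. When sterols are plentiful, INSIG proteins hold SCAP back, and INSIG1 is itself an SREBP target. In the prostate the pathway also feeds steroid and membrane synthesis, and androgens raise SREBP activity in prostate cancer cells.

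The sums of the 6 libraries ran from 511333 to 524905 FPKM. Absolute depth is unknown. Relative to NC replicate 1, depth read off the steps in the values of low genes ran from 0.783 in oeALKBH5 replicate 2 to 1.13 in NC replicate 2. ALKBH5 averaged 61.4 ± 3.39 FPKM over the NC libraries and 75.7 ± 4.05 FPKM over those of oeALKBH5 (mean ± SD, n = 3 per group), which limma did not call over all genes (adjusted p = 0.114). All 8 luminal prostate markers were present (KLK2, KLK3, TMPRSS2, FOLH1, HOXB13, SLC45A3, KRT8, KRT18; lowest single value 14.3 FPKM), among which KRT8 was called higher and SLC45A3 lower in oeALKBH5. Of 9 markers of blood, fibroblast and endothelial cells, 8 were in the table, with summed levels of 5.05 to 14.5 FPKM in NC and 2.47 to 29.4 FPKM in oeALKBH5, the highest single value being COL1A1 at 27.6 FPKM, while DCN and LUM were listed at 0 in all 6 libraries.

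Of the 28 genes, 5 fell in oeALKBH5, 23 were not called and none was called higher (limma on log2(FPKM + 1), Benjamini-Hochberg adjusted p under 0.05 over 12757 tested genes). The share called lower among all tested genes was 2.43%, the share called higher was 3.02%, and the share called in either direction was 5.45%. At an unadjusted p under 0.05, limma had 9 of the 28 lower, where 10.3% of all tested genes were, and 3 higher (TM7SF2, SREBF1 and INSIG2), where 11.6% of all tested genes were. The 5 genes were ACAT2, IDI1 and FDPS in the early steps, CYP51A1 at the first step after lanosterol, and the feedback regulator INSIG1. The median log2 fold change of the 28 genes was -0.27, beside 0.02 for all tested genes, and 22 of the 28 values were negative, beside 47.7% of all tested genes. All 3 oeALKBH5 libraries lay below all 3 NC libraries for 10 of the 28 genes, where 13.0% of all tested genes did so, and above them for 2, where 15.1% of all tested genes did so. The 28 genes were chosen with earlier results known, so these counts beside the shares of all tested genes are a description. The number of falling genes rests on the variance model and on single libraries. It was 3 with no filter on the mean and 1 (INSIG1) without the intensity trend in limma's variance. It was 3 without NC replicate 2, 2 (FDPS and INSIG1) without NC replicate 3 and 3 without oeALKBH5 replicate 3. Under median-of-ratios scaling it was 6, with EBP added.

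**Figure D1:**
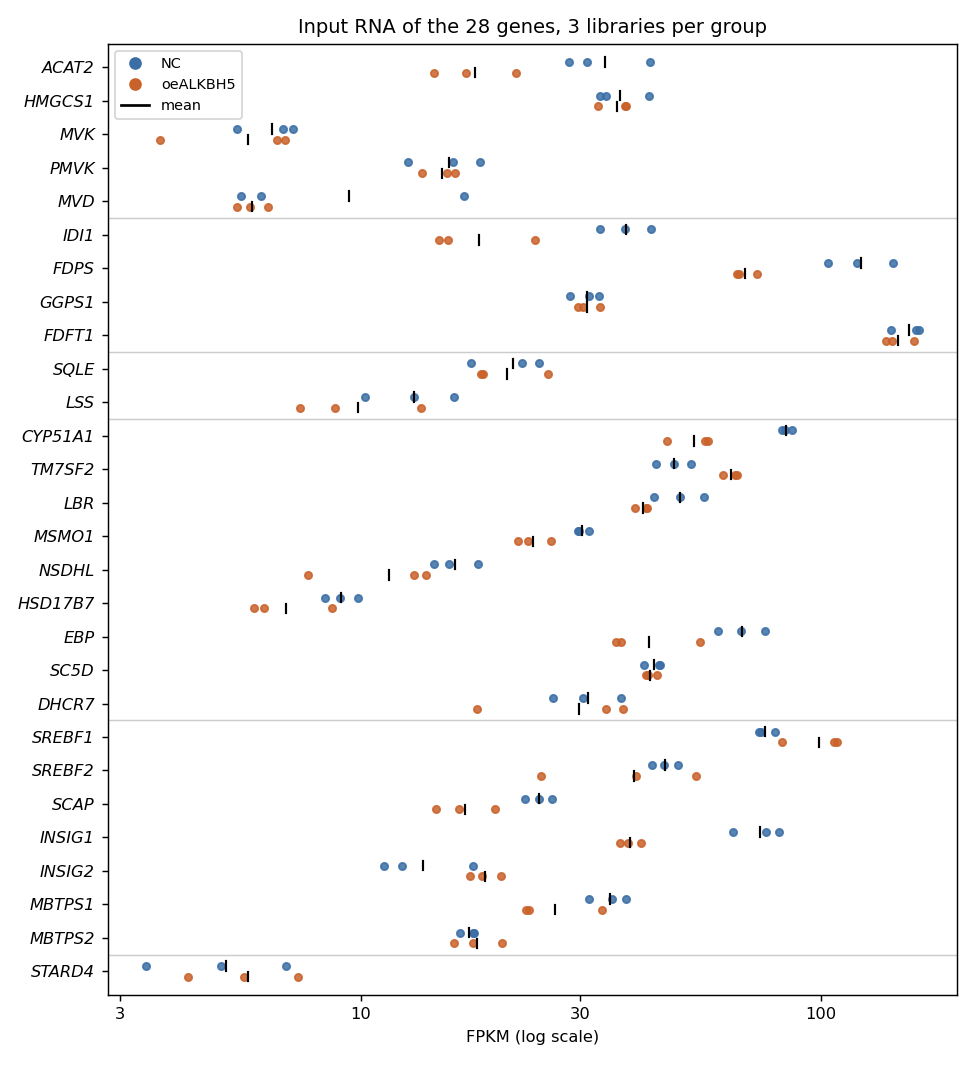
Input RNA level of each of the 28 genes in FPKM on a log axis, ordered along the pathway from ACAT2 at the top, with grey lines between the mevalonate, isoprenoid, squalene, sterol, SREBP and sterol transfer groups. Each point is 1 library (blue NC, orange oeALKBH5) and each black tick the mean of 3. The blue and orange points are apart for the called genes ACAT2, IDI1, FDPS, CYP51A1 and INSIG1. They are also apart for LBR, MSMO1, NSDHL, EBP and SCAP (orange lower) and TM7SF2 and SREBF1 (orange higher), which were not called. They interleave, for example, for HMGCS1, GGPS1 and SC5D.

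The pathway opens with ACAT2 (ENSG00000120437), the cytosolic thiolase that joins 2 acetyl-CoA units. Its level was 28.3, 42.4 and 31.0 FPKM in NC replicates 1, 2 and 3 and 14.4, 21.7 and 16.9 FPKM in oeALKBH5 replicates 1, 2 and 3. Replicate 2 was the highest library of both groups, and the groups did not overlap. ACAT2 fell by 47.8% in the mean, or -0.90 in log2 (SE 0.20, adjusted p = 0.0383 by limma), but 5 of the 6 fits that left out a library lost the call: limma gave an adjusted p of 0.0575, 0.107 and 0.11 without NC replicates 1, 2 and 3, and of 0.0978 and 0.104 without oeALKBH5 replicates 1 and 3. The ACAT2 call was also lost with no filter on the mean (adjusted p = 0.0953) and without the intensity trend (adjusted p = 0.093). ACAT2 overlaps the coding genes SOD2 and TCP1, the latter a chaperonin subunit, in the RefSeq annotation. SOD2 was not matched to a row of the expression table. TCP1 went from 317 ± 15.7 to 248 ± 14.5 FPKM (limma adjusted p = 0.0274). The libraries are directional per the labels, but whether counting used the strand is not given in the sources used here, so reads of the overlap cannot be told apart.

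The next 4 enzymes turn the product of ACAT2 into an activated isoprenoid precursor, and none was called. HMGCS1, the HMG-CoA synthase and a classical SREBP target, stood at 33.1, 42.3 and 34.0 FPKM in NC and 32.7, 37.7 and 37.5 FPKM in oeALKBH5. Its log2 fold change was -0.01, with a 95% interval of -0.32 to 0.29, which leaves out a fall of the size measured in ACAT2. The mevalonate kinase MVK was low and scattered, at 5.40, 7.11 and 6.77 FPKM in NC and 6.57, 3.67 and 6.83 FPKM in oeALKBH5. The next kinase, PMVK, had means of 15.6 ± 2.78 and 15.0 ± 1.24 FPKM in NC and oeALKBH5 (n = 3 each). MVD, which makes isopentenyl diphosphate by decarboxylation, stood at 5.49, 6.07 and 16.7 FPKM in NC and 5.38, 5.76 and 6.29 FPKM in oeALKBH5. NC replicate 3 alone carried the higher MVD mean of NC, and the log2 fold change of -0.46 was 0.0048 without that library. MVK overlaps MMAB, a cobalamin enzyme gene that it faces head to head; MMAB, chosen after its values were seen, went from 35.9 ± 2.02 to 16.7 ± 2.58 FPKM, and limma put the change at -1.07 ± 0.15 (SE) in log2 with an adjusted p of 0.00598.

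The isoprenoid steps held the deepest fall of the 28. IDI1 (ENSG00000067064), the isomerase that makes dimethylallyl diphosphate, stood at 33.1, 37.4 and 42.6 FPKM in NC and at 23.9, 14.8 and 15.5 FPKM in oeALKBH5. All oeALKBH5 libraries were lower, replicate 1 the least so. IDI1 fell by 52.1% in the mean (log2 fold change -1.05, SE 0.20, limma adjusted p = 0.0211) and ranked 150 from the lowest of 12757 tested genes by log2 fold change. Of the 6 fits that left out a library, 4 lost the IDI1 call: limma's adjusted p was 0.0666 and 0.0972 without NC replicates 2 and 3, and 0.062 and 0.0704 without oeALKBH5 replicates 2 and 3. The IDI1 call was also lost with no filter on the mean (0.0707), without the intensity trend (0.0641) and with a block for the replicate number (0.0605, all adjusted p by limma). IDI1 overlaps the coding gene WDR37, which went from 11.1 ± 1.12 to 7.64 ± 1.60 FPKM and was not called (limma adjusted p = 0.211).

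FDPS (ENSG00000160752) makes farnesyl diphosphate, the branch point towards sterols, prenylated proteins, dolichol and ubiquinone. It stood at 143, 103 and 119.6 FPKM in NC and at 66.3, 65.8 and 72.6 FPKM in oeALKBH5, so that the groups were far apart and the oeALKBH5 libraries close together. FDPS fell by 44.1% in the mean (log2 fold change -0.82, SE 0.12, limma adjusted p = 0.00877), and all 6 fits that left out a library called it too, the weakest being that without NC replicate 3 (adjusted p = 0.0469). The FDPS call was lost without the intensity trend (limma adjusted p = 0.0569). The enzymes that draw on farnesyl diphosphate were not called. GGPS1, which makes geranylgeranyl diphosphate, stood at 30.9 ± 2.26 and 31.0 ± 1.78 FPKM in NC and oeALKBH5 (log2 fold change 0.01, 95% interval -0.27 to 0.28). FDFT1, the squalene synthase that commits farnesyl diphosphate to sterols and the most abundant of the 28 per length, stood at 155 ± 11.6 and 147 ± 10.7 FPKM (log2 fold change -0.08, 95% interval -0.29 to 0.12). The ratio of FDPS to FDFT1 within a library was 1.01, 0.634 and 0.744 in NC and 0.466, 0.414 and 0.524 in oeALKBH5. FDPS was near the level of FDFT1 per length in NC replicate 1 and under it in the 5 other libraries; this ratio was chosen after its values were seen and has no test. FDPS has 10, IDI1 3, CYP51A1 3 and HSD17B7 2 pseudogenes named after them in RefSeq, none of which was in the table, and how reads shared with such copies were counted is not given in the sources used here.

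Squalene epoxidase SQLE and the cyclase LSS close the ring of the sterol skeleton. SQLE, a heavily regulated step, stood at 24.4, 17.3 and 22.4 FPKM in NC and 25.5, 18.4 and 18.2 FPKM in oeALKBH5. Its values interleaved, with a log2 fold change of -0.04 (95% interval -0.47 to 0.39). LSS stood at 15.9, 10.2 and 13.0 FPKM in NC and 7.39, 8.77 and 13.5 FPKM in oeALKBH5. The highest LSS library of oeALKBH5 lay among the NC libraries, and the log2 fold change of -0.39 was not called (95% interval -0.96 to 0.19, limma adjusted p = 0.408).

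**Figure D2:**
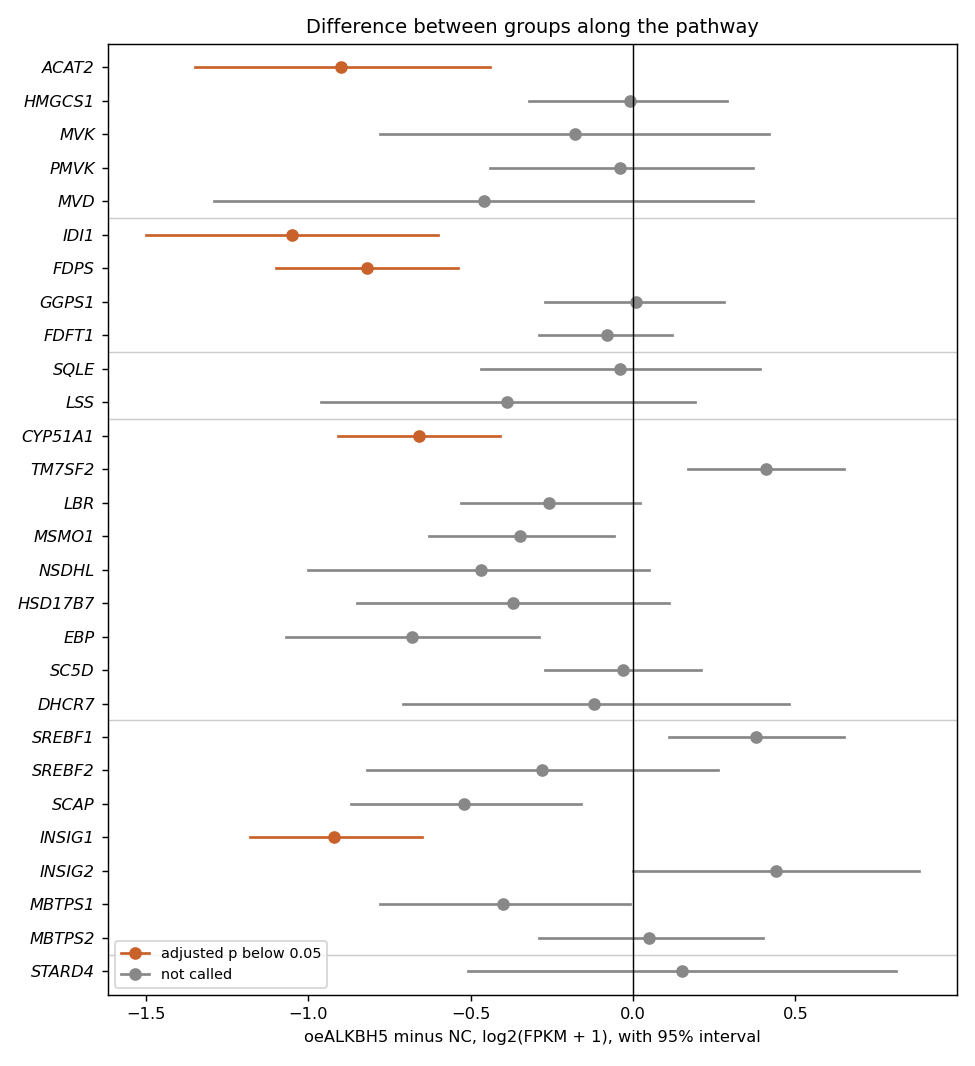
Difference between oeALKBH5 and NC for each of the 28 genes on the log2(FPKM + 1) scale, with its 95% interval from limma, in pathway order from the top. Orange marks the 5 genes with an adjusted p under 0.05, all of them left of 0 (from -1.05 for IDI1 to -0.66 for CYP51A1); grey marks the 23 genes that were not called, of which INSIG2, TM7SF2 and SREBF1 lie farthest to the right, at 0.44, 0.41 and 0.38.

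Lanosterol is turned into cholesterol by demethylation, reductions and a double-bond shift, and 9 enzymes of this section were measured, of which 1 fell. CYP51A1 (ENSG00000001630), the lanosterol 14-demethylase, stood at 83.4, 86.5 and 82.0 FPKM in NC and 56.0, 46.2 and 56.7 FPKM in oeALKBH5. The NC libraries were within a narrow band and the groups were well apart. CYP51A1 fell by 36.9% in the mean (log2 fold change -0.66, SE 0.11, limma adjusted p = 0.0118), and the call was lost without NC replicate 3 (adjusted p = 0.0537).

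EBP, the isomerase that shifts the ring double bond, missed the threshold. It stood at 59.8, 75.3 and 67.0 FPKM in NC and 54.4, 36.7 and 35.9 FPKM in oeALKBH5, without overlap (log2 fold change -0.68, SE 0.17, limma adjusted p = 0.057). EBP passed under median-of-ratios scaling (adjusted p = 0.0493) and without oeALKBH5 replicate 1 (adjusted p = 0.0187), the library of its group nearest to NC. Of the C4-demethylation enzymes, the oxidase MSMO1 stood at 31.4, 29.7 and 29.8 FPKM in NC and 25.9, 22.0 and 23.0 FPKM in oeALKBH5, without overlap (log2 fold change -0.35, limma adjusted p = 0.154). Its partner NSDHL, a dehydrogenase, stood at 15.6, 14.4 and 18.0 FPKM in NC and 7.67, 13.8 and 13.0 FPKM in oeALKBH5, again without overlap but with oeALKBH5 replicate 1 far below the others (log2 fold change -0.47, limma adjusted p = 0.271). HSD17B7, the keto reductase of the same complex, had means of 9.07 ± 0.766 and 6.88 ± 1.53 FPKM, and its groups overlapped.

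The 14-reductase step has a pair of enzymes, TM7SF2 and LBR, the latter also an inner nuclear membrane protein that holds chromatin. TM7SF2 stood at 48.0, 43.7 and 52.2 FPKM in NC and 61.1, 65.5 and 64.9 FPKM in oeALKBH5. All oeALKBH5 libraries were above all NC libraries, but the difference was not called (log2 fold change 0.41, SE 0.11, limma adjusted p = 0.0628). LBR stood at 43.4, 49.3 and 55.5 FPKM in NC and 41.9, 39.5 and 41.6 FPKM in oeALKBH5, all lower and also not called (log2 fold change -0.26, limma adjusted p = 0.258). The ratio of TM7SF2 to LBR within a library, taken after their values were seen and given without a test, was 1.11, 0.888 and 0.94 in NC and 1.46, 1.66 and 1.56 in oeALKBH5. TM7SF2 and LBR were thus near parity per length in NC, while TM7SF2 stood above LBR in each oeALKBH5 library.

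The last steps showed no call. SC5D, the lathosterol desaturase, stood at 43.4 ± 1.92 and 42.5 ± 1.26 FPKM in NC and oeALKBH5 (log2 fold change -0.03, 95% interval -0.27 to 0.21). DHCR7, the reductase that makes cholesterol from 7-dehydrocholesterol, stood at 26.1, 36.8 and 30.3 FPKM in NC and 37.2, 34.1 and 17.8 FPKM in oeALKBH5. Its oeALKBH5 replicate 3 was the lowest of all 6 libraries, and without it the log2 fold change of -0.12 became 0.20. Summed over the 20 enzymes, the level was 837.4, 861.0 and 883.2 FPKM in NC and 700.2, 694.1 and 672.6 FPKM in oeALKBH5, 0.801 times the NC mean. The isoprenoid steps stood at 0.763 times, the mevalonate steps at 0.787 times, the 9 enzymes after lanosterol at 0.831 times and the pair SQLE and LSS at 0.89 times their NC sums. These sums weight each gene by its level and are a description.

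Among the regulators, INSIG1 (ENSG00000186480), which retains the SCAP-SREBP complex in the endoplasmic reticulum, stood at 64.3, 81.0 and 75.8 FPKM in NC and 38.1, 40.6 and 36.5 FPKM in oeALKBH5. The highest oeALKBH5 library was far below the lowest NC library. INSIG1 fell by 47.9% in the mean (log2 fold change -0.92, SE 0.12, adjusted p = 0.00425 by limma). It was called in all 6 fits that left out a library (adjusted p from 0.00667 to 0.0316) and in each of the 7 other alternatives, which holds for no other of the 28 genes. INSIG2, its relative with the same retaining role but weaker control by SREBP, stood at 17.5, 12.3 and 11.2 FPKM in NC and 17.2, 18.4 and 20.2 FPKM in oeALKBH5. NC replicate 1 overlapped the oeALKBH5 libraries, and the log2 fold change of 0.44 was not called (95% interval 0.00 to 0.88, limma adjusted p = 0.227). The ratio of INSIG1 to INSIG2 was 3.67, 6.59 and 6.75 in NC and 2.21, 2.21 and 1.81 in oeALKBH5, a ratio chosen after its values were seen and given without a test. INSIG1 was the more abundant of the pair per length in every library, by less in oeALKBH5.

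The transcription factors themselves were not called. SREBF1, whose products drive mainly fatty acid genes, stood at 73.8, 79.4 and 73.1 FPKM in NC and 107, 108 and 82.3 FPKM in oeALKBH5. All oeALKBH5 libraries were higher, replicate 3 only a little (log2 fold change 0.38, SE 0.12, limma adjusted p = 0.109). SREBF2, whose product drives mainly the cholesterol genes, stood at 45.6, 48.9 and 43.0 FPKM in NC and 24.7, 53.3 and 39.7 FPKM in oeALKBH5. The oeALKBH5 libraries lay on both sides of the NC libraries; the log2 fold change of -0.28 (95% interval -0.82 to 0.26) was 0.01 without oeALKBH5 replicate 1. The ratio of SREBF1 to SREBF2 was 1.62, 1.62 and 1.70 in NC and 4.32, 2.03 and 2.08 in oeALKBH5, likewise without a test. SREBF1 was above SREBF2 in every library, with oeALKBH5 replicate 1 far from the rest. SREBF1 overlaps the coding gene RAI1, which stood at 15.6 ± 3.13 and 18.9 ± 3.03 FPKM and was not called; GGPS1 and MBTPS2 likewise overlap ARID4B and YY2, neither of them called. For all of these genes an RNA level says nothing of how much SREBP was cleaved.

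**Figure D3:**
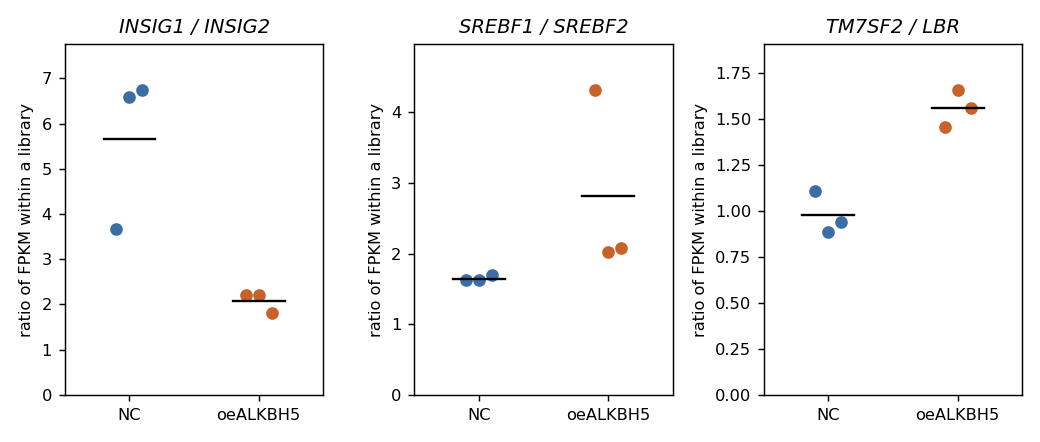
Ratio of FPKM of 2 genes within each library, for INSIG1 over INSIG2, SREBF1 over SREBF2 and TM7SF2 over LBR; points are the 3 libraries of each group, black lines their means, and each axis starts at 0. The first ratio is lower in every oeALKBH5 library (1.81 to 2.21 against 3.67 to 6.75), and the other two are higher, with the SREBF1 to SREBF2 ratio of oeALKBH5 replicate 1 (4.32) apart from the rest.

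SCAP, the sterol-sensing escort, stood at 22.7, 24.3 and 26.1 FPKM in NC and 19.6, 16.3 and 14.6 FPKM in oeALKBH5. All oeALKBH5 libraries were lower, and the difference missed the threshold (log2 fold change -0.52, SE 0.16, limma adjusted p = 0.0976). MBTPS1, the site-1 protease, stood at 31.3, 37.7 and 35.2 FPKM in NC and 23.1, 33.4 and 22.8 FPKM in oeALKBH5, with replicate 2 of oeALKBH5 inside the NC range (log2 fold change -0.40, limma adjusted p = 0.215). MBTPS2, the site-2 protease, stood at 17.2 ± 0.66 and 17.9 ± 2.17 FPKM (log2 fold change 0.05, 95% interval -0.29 to 0.40). STARD4, a soluble carrier that moves cholesterol between membranes and is itself induced when sterols are scarce, had the lowest mean of the 28 per length over the 6 libraries, at 3.42, 6.89 and 4.97 FPKM in NC and 4.21, 5.57 and 7.31 FPKM in oeALKBH5. Its groups overlapped fully (log2 fold change 0.15, 95% interval -0.51 to 0.81).

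The promoters of the falling genes are shown because SREBP acts on them together with the CCAAT-binding factor NF-Y and with Sp1. RefSeq windows of GRCh38.p14, 250 bases before to 50 after a start, were found for 25 of the 28 genes and for 4 of the 5 that fell. Printed below, each 5′ to 3′ on its gene's strand, are the 250 bases before the start of the 3 falling genes with a single listed start, and 80 bases of the SREBF2 promoter. Capitals mark matches, on either strand, to a sterol regulatory element (TCACNCCAC), a CCAAT box (CCAAT), an E-box (CACGTG) or a GC box (GGGCGG). The lines are INSIG1 at chr7:155297628-155297877 (plus strand), FDPS at chr1:155308616-155308865 (plus strand), CYP51A1 at chr7:92134478-92134727 (minus strand) and SREBF2 at chr22:41832952-41833031 (plus strand).
INSIG1: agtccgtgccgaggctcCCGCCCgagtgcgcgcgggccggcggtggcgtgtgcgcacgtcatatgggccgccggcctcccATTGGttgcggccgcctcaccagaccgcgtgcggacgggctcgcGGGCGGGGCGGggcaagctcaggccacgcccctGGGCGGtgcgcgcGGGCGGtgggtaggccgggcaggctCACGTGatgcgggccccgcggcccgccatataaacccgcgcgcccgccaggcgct
FDPS: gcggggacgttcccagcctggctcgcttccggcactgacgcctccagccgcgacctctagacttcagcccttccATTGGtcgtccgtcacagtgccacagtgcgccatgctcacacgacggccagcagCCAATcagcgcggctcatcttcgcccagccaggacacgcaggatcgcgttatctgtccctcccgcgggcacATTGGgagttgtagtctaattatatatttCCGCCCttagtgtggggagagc
CYP51A1: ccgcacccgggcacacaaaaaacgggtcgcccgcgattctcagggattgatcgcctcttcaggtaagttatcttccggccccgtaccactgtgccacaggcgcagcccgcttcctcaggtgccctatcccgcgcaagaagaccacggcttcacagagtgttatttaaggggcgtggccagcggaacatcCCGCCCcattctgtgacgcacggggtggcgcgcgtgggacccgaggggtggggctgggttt
SREBF2: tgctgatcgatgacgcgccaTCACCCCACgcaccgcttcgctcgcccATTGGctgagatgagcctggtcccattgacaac

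FDPS carried 3 CCAAT boxes, which begin 176, 122 and 51 bases before the start, and 1 GC box. INSIG1 carried 1 CCAAT box, 1 E-box 55 bases before the start, and 5 GC boxes in the stretch shown, of which 2 overlap by a base. CYP51A1 carried 1 GC box and no CCAAT box. At least 1 CCAAT box lay in a window of 17 of the 25 genes (68%), beside 39.7% of all 27305 genes with a window, coding or not; among the genes that fell it was 3 of 4, and among the others 14 of 21. A GC box lay in 21 of the 25 (84%), beside 48.3% of all genes, and an E-box in 4 of the 25 (16%), beside 8.77% of all genes. The strict sterol regulatory element was in 1 of the 25, SREBF2, where it begins 133 bases before the start, and in 1.39% of all genes. These matches are letters in a window and not measured sites; looser forms of the element were not searched.

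Neighbouring genes of sterol and lipid metabolism were read from the same fit, from 5 lists of 59 genes, of which 58 were in the table and 53 tested. These lists too were chosen with earlier results of these data known, so their counts are a description. Lipogenic SREBP targets had 3 of 11 tested members lower, beside 2.43% of all tested genes. Their median log2 fold change was -0.46, beside 0.02 for all tested genes. FASN, FADS2 and ME1 were the 3 called lower. ME1, the malic enzyme that supplies NADPH, stood at 81.6, 80.8 and 91.4 FPKM in NC and 26.1, 41.5 and 27.7 FPKM in oeALKBH5 (log2 fold change -1.41, SE 0.17, adjusted p = 0.00315 by limma). The desaturase FADS2 and the fatty acid synthase FASN fell by 0.78 and by 0.64 on the log2 scale (limma adjusted p = 0.00242 and 0.03). FASN kept its call in 1 of the 6 fits that left out a library, that without NC replicate 1; in the others limma's adjusted p was 0.0784 and 0.0995 (NC replicates 2 and 3 left out) and 0.0652, 0.0526 and 0.0885 (oeALKBH5 replicates 1, 2 and 3 left out). The FASN call was also lost with no filter on the mean (adjusted p = 0.087) and without the intensity trend (adjusted p = 0.11).

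Genes of sterol efflux, storage, oxysterols and lysosomal export had 1 of 12 tested members lower and 1 higher, with a median of 0.11. Among all tested genes 2.43% were called lower and 3.02% higher, with a median of 0.02. NPC1, which exports cholesterol from lysosomes, stood at 62.3, 66.6 and 70.1 FPKM in NC and 103, 109 and 104 FPKM in oeALKBH5, far above every NC library. NPC1 rose to 1.59 times the NC mean (log2 fold change 0.66, SE 0.09, limma adjusted p = 0.0052) and was called in all 6 fits that left out a library, but not without the intensity trend (adjusted p = 0.0505). SOAT1, which esterifies cholesterol for storage, stood at 30.5, 31.3 and 34.7 FPKM in NC and 19.1, 12.0 and 19.4 FPKM in oeALKBH5. SOAT1 fell by 47.7% (log2 fold change -0.92, SE 0.19, adjusted p = 0.0308 by limma), and 4 of the 6 fits with a library left out did not call it, limma's adjusted p being 0.0763, 0.085 and 0.124 without NC replicates 1, 2 and 3 and 0.0502 without oeALKBH5 replicate 3. The SOAT1 call was also lost with no filter on the mean (0.0808), without the intensity trend (0.079) and with a block for the replicate number (0.0521, all adjusted p by limma). CH25H, CYP27A1 and GPR183, the first pair oxysterol-forming hydroxylases and the last an oxysterol receptor, were listed at 0 in all 6 libraries and are named after their values were seen.

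No member passed the test in the other 3 lists. These were 6 electron donors and partners of sterol enzymes (median -0.35), 14 genes that use isoprenoids for prenylation, dolichol and ubiquinone (median -0.16) and 10 genes that degrade or assist the SREBP machinery (median -0.05). At an unadjusted p under 0.05, limma had 3 of the 6 electron donors and partners lower and 1 higher. It had 2 of the 14 isoprenoid users lower and 0 of the 10 SREBP machinery genes in either direction. Among all tested genes, 10.3% were lower and 11.6% higher at the same unadjusted p. The lowest adjusted p in these 3 lists was 0.0553.

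**Figure D4:**
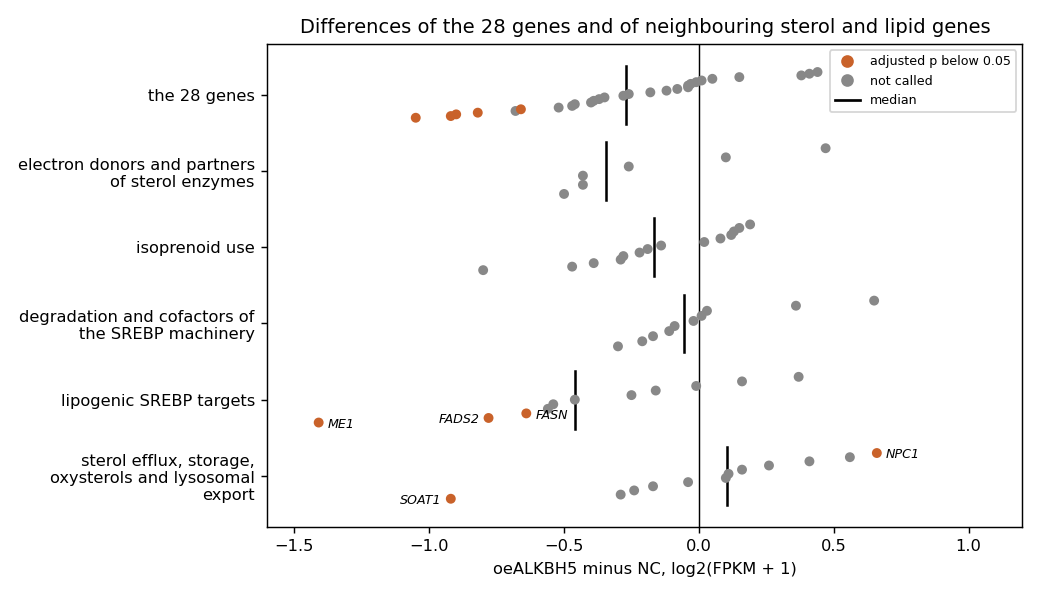
Difference between oeALKBH5 and NC on the log2(FPKM + 1) scale for the 28 genes and for the tested members of 5 lists of neighbouring genes; each point is a gene, orange where the limma adjusted p was under 0.05, and black lines are medians. The medians run from -0.46 for lipogenic targets to 0.11 for efflux, storage and lysosomal export genes, and NPC1 is the single called point to the right of 0.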

How the data were processed

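Input libraries of C4-2 cells (3 NC, 3 oeALKBH5) were compared. The authors' deposited gene values are FPKM; the table names no unit, which follows from the tools in the submitters' processing notes (cutadapt 1.9.3, HISAT2 2.0.4, Cufflinks, Cuffdiff, build hg19, without roles) and from the values. Symbols came from a gene name table that matched 19434 of 20308 identifiers. Values were transformed to log2(FPKM + 1), which understates the change of low genes, then compared by limma 3.58.1 under R 4.3.3 (intensity trend, two-sided, Benjamini-Hochberg over the 12757 genes averaging 0.5 FPKM or more, threshold 0.05). The steps were tested on simulated data. All 28 genes were named, and of the neighbouring lists those past the threshold and, outside this rule, 3 genes listed at 0; coding genes that overlap a member were named too; members and lists were chosen with earlier results of these data known. Promoters came from RefSeq (GRCh38.p14). The m6A peak lists are on hg19, for which no annotation was used here, so peaks of these genes were not analysed here. Alternatives were another pseudocount (0.1), filters, quantile and median-of-ratios scaling, no trend, a replicate block and leaving out each library. Figures used Python 3.11.15 with pandas 2.3.3, numpy 2.4.6 and matplotlib 3.10.9.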

Additional observations from a re-analysis of the deposited data

How the results depend on the processing

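The 5 genes called lower became 3 with no filter on the mean, 1 without the trend, and 2 to 5 when a library was left out. They became 6 under median-of-ratios scaling, with EBP added. The 5 called without oeALKBH5 replicate 1 held EBP and not ACAT2. None of the 28 was called higher under any alternative. Calls over all genes, 695, became 421 with no filter on the mean, 270 without the trend, 344 with the replicate block, and 232 to 436 when a library was left out; the cause was not tested. Neighbouring genes called lower, 4, became 2 without the trend and 2 to 4 when a library was left out, and those called higher, 1, became 0 without the trend. The labels number replicates alike in both groups, but deviations of same-numbered libraries were nearly uncorrelated (-0.017, -0.021 and 0.032 for numbers 1, 2 and 3). The values thus showed no pairing by number, which cannot tell whether same-numbered libraries were prepared together. The replicate block left 4 of the 28 genes called lower, IDI1 losing its call (limma adjusted p = 0.0605). It left 3 neighbouring genes lower, SOAT1 losing its call (limma adjusted p = 0.0521). The median over the 28 genes ran from -0.31 without oeALKBH5 replicate 3 to -0.16 without NC replicate 3. Small differences changed sign: HMGCS1 to 0.0011 under quantile normalization and GGPS1 to -0.01 under median-of-ratios scaling, and over fits that left out a library HMGCS1 ran from -0.08 to 0.09, MVK from -0.31 to 0.06, PMVK from -0.17 to 0.07, MVD from -0.72 to 0.0048, GGPS1 from -0.05 to 0.05, SQLE from -0.20 to 0.05, DHCR7 from -0.31 to 0.20, SREBF2 from -0.53 to 0.01, MBTPS2 from -0.04 to 0.13 and STARD4 from -0.06 to 0.36 on the log2 scale. Without the trend ACAT2, IDI1, FDPS and CYP51A1 lost their calls (limma adjusted p = 0.093, 0.0641, 0.0569 and 0.062). Without the trend 73.3% of all calls were higher, beside 55.4% with it. Absolute depth is unknown, so low genes such as MVK, MVD and STARD4 carry an unknown counting error.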
